A study of Rattus norvegicus with 6 samples.

Results

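Transcripts for the voltage-dependent anion channels of the mitochondrial outer membrane and for the enzymes of the malate-aspartate shuttle were examined in whole hippocampus of 2 selectively bred rat lines. The set has 9 genes: the channels Vdac1, Vdac2 and Vdac3, the adenine nucleotide carriers Slc25a4 and Slc25a5, the aspartate aminotransferases Got1 and Got2, and the malate dehydrogenases Mdh1 and Mdh2. Every probe set annotated to exactly 1 gene of this set was taken, which gave 11 of the 8799 probe sets on the array and covered 7 of the 9 genes. No probe set qualified for Vdac2 or Vdac3, and these genes were not analysed here. The set was built by function around Vdac1 and Got2, both chosen by their line difference in these same pools, so the line differences below are a description without a test.

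The Syracuse High Avoidance (SHA) and Syracuse Low Avoidance (SLA) lines are named for how well they learn to avoid a signalled shock. Each line was represented by 3 pools, each of total RNA from the hippocampi of 3 rats, and each pool was read on its own one-colour array. All pools of both lines came from rats killed 2 weeks after avoidance testing, so no untested state was measured and a difference that preceded testing cannot be told apart from one that followed it. The labels give neither age nor sex, and both lines are used as labelled. The numbers 1 to 3 are carried by pools of both lines, without a statement of what they share. The pool is the replicate (n = 3 per line), so the spread given is between pools and does not show the spread between single rats.

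Voltage-dependent anion channels let metabolites such as ATP, ADP, pyruvate and malate cross the outer membrane of mitochondria. The adenine nucleotide carriers then exchange ATP for ADP across the inner membrane. The malate-aspartate shuttle moves the reducing power of cytosolic NADH into mitochondria through a cytosolic and a mitochondrial malate dehydrogenase (Mdh1 and Mdh2), a cytosolic and a mitochondrial aspartate aminotransferase (Got1 and Got2) and a pair of inner-membrane carriers. Neurons depend on it to keep glycolysis running while pyruvate is oxidised, and the aminotransferases also link it to the metabolism of glutamate and aspartate.

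The upstream sequences of 3 members are shown because, within the set, Vdac1 and Got2 held all the probe sets whose pools separated by line, and Slc25a4 was the member that varied most closely with Got2 within lines. They come from RefSeq on build GRCr8, which held entries for 8 of the 9 genes, and each covers the 250 bases before the annotated start, 5′ to 3′ on the gene's strand. The Vdac1 stretch is chr10:37032959-37033208 (plus strand), that of Got2 is chr19:9180178-9180427 (plus strand) and that of Slc25a4 is chr16:52805271-52805520 (plus strand). Capitals mark matches to the motifs described next.
Vdac1: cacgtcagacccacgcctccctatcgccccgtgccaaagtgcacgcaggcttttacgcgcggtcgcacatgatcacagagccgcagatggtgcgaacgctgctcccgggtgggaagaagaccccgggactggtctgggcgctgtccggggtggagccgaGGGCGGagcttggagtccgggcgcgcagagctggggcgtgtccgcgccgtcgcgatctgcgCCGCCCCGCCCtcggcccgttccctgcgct
Got2: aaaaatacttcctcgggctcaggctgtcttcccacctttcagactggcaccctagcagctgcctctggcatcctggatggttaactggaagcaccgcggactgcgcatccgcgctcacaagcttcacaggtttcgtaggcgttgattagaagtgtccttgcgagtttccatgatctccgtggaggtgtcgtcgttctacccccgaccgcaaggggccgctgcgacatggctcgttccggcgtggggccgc
Slc25a4: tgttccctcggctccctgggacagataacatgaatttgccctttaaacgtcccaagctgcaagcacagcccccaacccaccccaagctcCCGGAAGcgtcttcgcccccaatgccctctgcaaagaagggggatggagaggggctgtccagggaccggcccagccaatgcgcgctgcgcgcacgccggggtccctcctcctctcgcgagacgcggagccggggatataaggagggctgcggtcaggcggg

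On both strands, 5 motifs of regulators known for mitochondrial or housekeeping genes were searched. The GC box GGGCGG, bound by Sp1, matched in 5 of the 8 members with a sequence (Vdac1, Vdac2, Slc25a5, Got1 and Mdh2), against 30.5% of 33469 promoter stretches of the same length. In Vdac1 its matches began 91, 30 and 25 bases before the start, the last pair overlapping in the letters CCGCCCCGCCC. The ETS site CCGGAAG, bound by GABP, matched in Slc25a4 and Mdh2, against 7.27% of all stretches. The cyclic AMP response element TGACGTCA matched in Mdh2, against 1.59%. The core of the NRF-1 site, CGCATGCG, and the half-site AAGGTCA of oestrogen-related receptors matched in none of the 8, and occur in 1.47% and 3.99% of all stretches. Of the 5 motifs, none matched in this stretch of Got2 or of Mdh1. GC content was 71.2% for Vdac1 and 59.6% for Got2, beside a median of 51.2% over all stretches. A match describes letters only, and no binding was measured.

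Array-wide values set the scale for what follows. Intensities are linear values deposited by the authors, already scaled so that the 2%-trimmed mean is 250.3 or 250.4 on every array. Values under a low-intensity limit of 8.9, their 10th percentile, were raised to it, and the dimmest 25% of probe sets was left out of the tests. Each difference is the mean log2 intensity of SHA less that of SLA, with its standard error from a limma fit to the probe sets kept. Of the 6555 probe sets tested, 0 (0%) passed limma's adjusted p of 0.05 and 98 (1.5%) had an unadjusted p under 0.05. Their median difference was -0.01, with 48.1% higher in SHA. The pools numbered 1 read highest in the bacterial and phage transcripts added as array controls, SLA pool 1 above all. Geometric means were 753 in SHA and 1684 in SLA, against 116 to 416 in the other 4 pools. Each member's difference is therefore also given without both pools numbered 1. All 16 neuronal markers tested of the 20 listed, Camk2a, Nrgn and Vsnl1 of forebrain neurons among them, read above the low-intensity limit in every pool. The tested markers of skeletal muscle, endothelium and choroid plexus did so too. All had passed the same brightness filter, which acts on the mean over pools and favours such readings without ensuring them in every pool. These readings therefore do not identify the tissue, which is taken from the labels.

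Across the set, 10 of the 11 probe sets were higher on average in SHA and 1 was lower. The median difference was 0.43 over the 11 probe sets and 0.34 over the 10 that passed the brightness filter. The 3 SHA pools lay wholly above the 3 SLA pools for 4 of the 11 probe sets, 2 of Vdac1 and 2 of Got2, and for 3 of the 10 that were tested. Over all probe sets tested, 2.01% showed that upward separation and 5.66% a separation in either direction. Since Vdac1 and Got2 were chosen by this contrast, nothing is read from the count. Without both pools numbered 1, 7 of the 11 were higher in SHA.

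**Figure D1:**
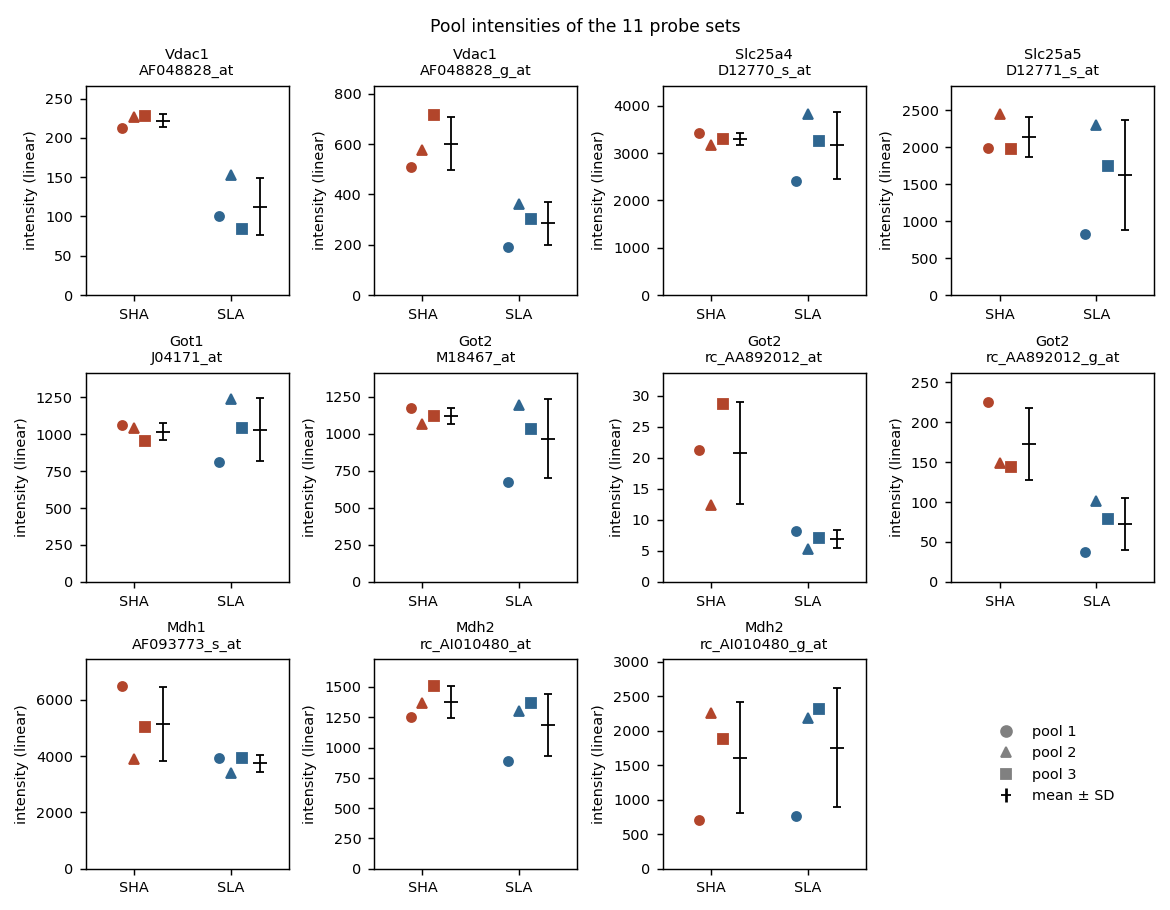
Linear intensity (vertical axis, from 0) of each of the 11 probe sets in the 3 SHA and 3 SLA pools, with symbols for the pool number and the mean ± SD of 3 pools beside them. The SHA pools lie above the SLA pools in both Vdac1 panels and in both panels of the second Got2 sequence, and SLA pool 1 is the lowest point in 7 panels.

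Vdac1, the most abundant channel isoform in most tissues, was read by a pair of probe sets designed to the same sequence entry (AF048828), so they are not independent readings. On AF048828_g_at the SHA pools 1, 2 and 3 read 509.8, 575.5 and 716.3, and the SLA pools 192.4, 361.2 and 300.4. The lowest SHA pool was thus above the highest SLA pool. The means were 600.5 ± 105.5 in SHA and 284.7 ± 85.5 in SLA (SD, n = 3), a difference of 1.11 ± 0.30 or 2.16-fold. On AF048828_at the SHA pools read 212.7, 226.0 and 227.4 and the SLA pools 100.8, 153.2 and 83.9. The SHA pools were close together here, with an SD of 8.11 around 222, while the SLA pools had an SD of 36.1 around 113, and the difference was 1.03 ± 0.35.

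Within pool numbers 1, 2 and 3, Vdac1 differed by 1.41, 0.67 and 1.25 on AF048828_g_at and by 1.08, 0.56 and 1.44 on AF048828_at. The pools numbered 2 were nearest to each other on both. Without the pools numbered 1 the differences were 0.96 and 1.00, and with the pool number as a block the standard errors were 0.20 and 0.28.

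The adenine nucleotide carriers lie inside Vdac1 on the path of ATP out of mitochondria. Slc25a4, the carrier form typical of heart, muscle and brain, was read by D12770_s_at at 3427.9, 3171.7 and 3298.2 in the SHA pools and 2419.4, 3832.1 and 3256.2 in the SLA pools. Its difference was 0.08 ± 0.25. The SLA pools lay on both sides of the SHA pools, which were close together, and without both pools numbered 1 the difference was -0.13.

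Slc25a5, the more widely expressed form, was read by D12771_s_at at 1989.4, 2449.7 and 1982.6 in SHA and 826.2, 2297.7 and 1745.0 in SLA. The difference of 0.51 ± 0.36 came largely with SLA pool 1: it was 1.27 between the pools numbered 1, but 0.09 and 0.18 between those numbered 2 and 3. Without SLA pool 1 it was 0.09, and without both pools numbered 1 it was 0.14. The suffix of both carrier probe sets marks a design that can also match related transcripts, and the carriers are close in sequence, so a contribution of each to the other's reading was not tested.

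Got2, the mitochondrial aspartate aminotransferase, was read by 3 probe sets designed to 2 sequence entries, which differed in what they showed. On M18467_at the SHA pools read 1175.3, 1066.4 and 1122.8 and the SLA pools 672.0, 1196.1 and 1028.8, a difference of 0.26 ± 0.26. SLA pool 2 was the highest of the 6 and SLA pool 1 the lowest, and without the pools numbered 1 the difference was -0.02. On rc_AA892012_g_at the SHA pools read 224.7, 148.6 and 144.0 and the SLA pools 37.0, 101.3 and 78.4. All SHA pools were above all SLA pools, with 172 ± 45.3 against 72.2 ± 32.6 (SD, n = 3) and a difference of 1.34 ± 0.47.

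The size of the Got2 difference on rc_AA892012_g_at depended on the pools numbered 1, where it was 2.60, against 0.55 and 0.88 within the numbers 2 and 3. Without both it was 0.71. The third probe set, rc_AA892012_at, was too dim for the brightness filter: its SHA pools read 21.3, 12.4 and 28.7 and its SLA pools 8.2, 5.3 and 7.1. All 3 SLA values lay under the low-intensity limit of 8.9, so its difference of 1.14 depends on that limit and was 0.05 with the limit at the 25th percentile of intensities. Without both pools numbered 1 it was 1.08. Both rc_AA892012 probe sets come from 1 expressed sequence tag, so the separation of the lines for Got2 rests on that one entry and was not shared by M18467_at.

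Got1, the cytosolic aspartate aminotransferase, was read by J04171_at at 1059.5, 1040.7 and 950.7 in SHA and 810.7, 1237.3 and 1040.7 in SLA. The means were 1017 ± 58.2 and 1030 ± 214 (SD, n = 3), and the difference was 0.00 ± 0.23. As for Slc25a4, the SHA pools fell inside the range of the SLA pools. The difference within the numbers was 0.39, -0.25 and -0.13, and it was -0.19 without both pools numbered 1.

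Mdh1, the cytosolic malate dehydrogenase, was read by AF093773_s_at at 6484.3, 3884.8 and 5044.5 in SHA and 3919.9, 3387.9 and 3922.8 in SLA. The difference was 0.43 ± 0.27, and SHA was higher within each number, by 0.73, 0.20 and 0.36, and by 0.28 without both pools numbered 1. Lines overlapped because SHA pool 2 lay under SLA pools 1 and 3. The SHA pools spread more widely than the SLA pools here, with SDs of 1302 and 308.

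Mdh2, the mitochondrial form, was read by a pair of probe sets of 1 entry that disagreed in sign. On rc_AI010480_at the SHA pools read 1253.0, 1365.7 and 1510.7 and the SLA pools 889.4, 1297.6 and 1364.5, a difference of 0.24 ± 0.24. On rc_AI010480_g_at the SHA pools read 709.4, 2252.5 and 1874.8 and the SLA pools 770.0, 2186.7 and 2314.8, a difference of -0.13 ± 0.52. On the latter both pools numbered 1 lay far under the other 4, and the pools of a number resembled each other more than the pools of a line did. With the pool number as a block its standard error was 0.14, with the same difference. Without both pools numbered 1 the Mdh2 differences were 0.11 on rc_AI010480_at and -0.13 on rc_AI010480_g_at.

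**Figure D2:**
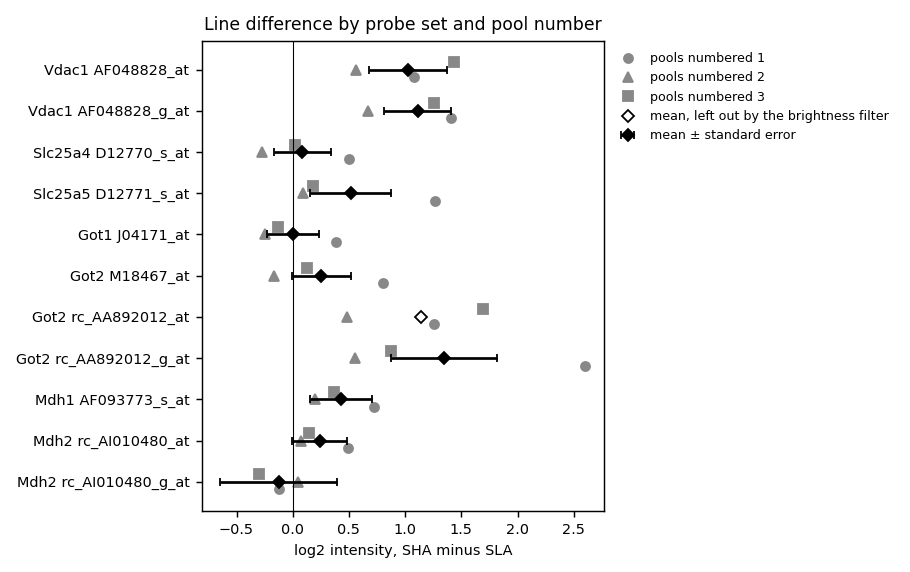
Line difference (horizontal axis, log2 SHA minus SLA) of the 11 probe sets, with the mean ± standard error in black and the differences between pools that share a number in grey; the open symbol marks the probe set left out by the brightness filter. Vdac1 and the rc_AA892012 probe sets of Got2 lie to the right of 0 for all 3 numbers, and the points for number 1 lie farthest right for 8 of the 11.

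By pool number, 10 of the 11 probe sets were higher in SHA between the pools numbered 1, 8 between those numbered 2 and 9 between those numbered 3. The median differences were 0.81, 0.09 and 0.18. Over all probe sets tested the shares higher in SHA were 44.9%, 43.8% and 55.7%, with medians of -0.09, -0.05 and 0.07. SLA pool 1 gave the lowest of the 6 readings for 7 of the 11 members, a place it held for 24.6% of all probe sets tested. In the alternative fit with array weights and no block, SLA pool 3 had a weight of 5.03 and counted most. SLA pool 1 had the lowest weight, 0.37, against 0.74 to 0.99 in the remaining pools. The part of SLA pool 1 in the members' differences was not tested beyond down-weighting it or leaving it out. When it was left out, 8 of the 11 were higher in SHA. The count separated by line was 4. With fewer pools separation is easier, and the share over all probe sets is not given for that setting, so the counts are not compared.

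How the members varied within lines was described apart from the line difference. Vdac1 and Got2 were chosen in these same pools, where the spread within lines may have played a part. The covariation is therefore not taken as independent of that choice. After subtraction of each line's mean, the 42 pairs of tested probe sets from different genes had a median Pearson r of 0.64 over the 6 pools, and 34 pairs were above 0. The median over all pairs of the 6555 probe sets was 0.02, with quartiles of -0.48 and 0.51, so high values are common over 6 pools. Over all pairs of the 1639 in the brightest 25%, where 8 of the 10 members lie, the median was 0.01. The 42 pairs reuse the same 10 probe sets and are not independent. The highest member pair was Slc25a4 with Got2 on M18467_at, at 0.99, followed by Slc25a4 with Got1 at 0.96 and Slc25a5 with Got1 at 0.95. Mdh1 stood apart: all 8 pairs below 0 contained it, out of its 9 pairs, down to -0.72 with Mdh2 on rc_AI010480_g_at. These values share 6 arrays and their scaling and carry no test. Without SLA pool 1, a setting added after the data were seen, the median was 0.20, against 0.48 to 0.88 without any other single pool. The part of that array in the covariation was not tested.

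**Figure D3:**
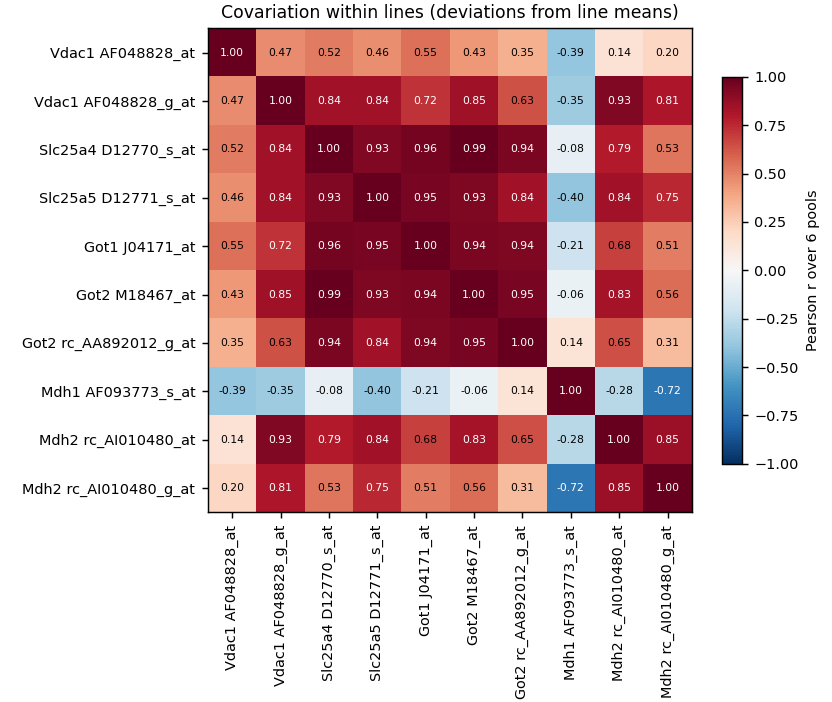
Pearson r between the 10 tested probe sets over 6 deviations from line means (log2), on a colour scale from -1 to 1. The block from Slc25a4 to Got2 is high throughout, with r up to 0.99, while the Mdh1 row is mostly below 0.

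Probe sets of 1 gene did not always covary more closely than those of different genes. Within lines, r was 0.95 between M18467_at and rc_AA892012_g_at of Got2, although the first did not separate the lines. It was 0.85 between the Mdh2 probe sets and 0.47 between those of Vdac1.

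Genes whose pattern over the 6 pools was most like that of a member were ranked by r among 3811 other genes. For Vdac1 on AF048828_g_at these were Kcnv1, a potassium channel subunit (r = 0.97), Camk2b, a calcium/calmodulin-dependent kinase subunit (0.97), Ndn, necdin (0.97), Ywhaz, a 14-3-3 protein (0.97), and Fkbp11, a prolyl isomerase of the endoplasmic reticulum (0.96). With 6 pools such values are common, and 33 genes exceeded 0.9. For Got2 on M18467_at the nearest were Eif2ak2, the RNA-activated kinase PKR (0.99), Adcy5, an adenylate cyclase (0.99), Coq3, an enzyme of ubiquinone synthesis (0.98), Rab12, a small GTPase (0.98), and Oat, ornithine aminotransferase of mitochondria (0.98), out of 141 genes above 0.9. Among members, Slc25a4 and Slc25a5 were close to this Got2 probe set, at 0.96 and 0.95, and Vdac1 was at 0.76.

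With line means removed, the genes nearest to Vdac1 were Unc13b, a protein of vesicle priming, App, the amyloid precursor protein, Pygb, the brain form of glycogen phosphorylase, Dlat, a component of pyruvate dehydrogenase, and Hmga1, a chromatin protein, all with r between 0.99 and 1.00. Those nearest to Got2 were Pkia, an inhibitor of protein kinase A, Slc25a4, Eif2ak2, the phosphatase Dusp5 and Rab12, in the same range. Counts above 0.9 were then 226 for Vdac1 and 166 for Got2.

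Other genes of the shuttle were split in direction. Of 14 other shuttle and linked proteins listed, 6 were tested, with 2 higher and 4 lower in SHA and a median of -0.12. The median was 0.09 when the probe sets of a gene were averaged, so its direction depended on that choice, and -0.05 without both pools numbered 1. None passed, none had an unadjusted p under 0.05 in limma, and none separated by line. Over the 3812 genes tested by their brightest probe set, 1.42% had such a p and 5.9% separated. Their median was -0.03, with 45.8% higher in SHA. Slc25a11, the carrier that exchanges malate for 2-oxoglutarate in this shuttle, read 898 ± 33.9 in SHA and 844 ± 80.0 in SLA (0.09 ± 0.21), with 0.50 on its other probe set, and Glud1, glutamate dehydrogenase, differed by 0.10 ± 0.33. On the lower side were Gpd2, the mitochondrial enzyme of the alternative glycerol phosphate shuttle (-0.21 ± 0.32), Gpt, alanine aminotransferase (-0.13 ± 0.23), and Ldhb, a lactate dehydrogenase subunit (-0.12 ± 0.23). Second probe sets disagreed in sign for Gpd2, at 1.44 on X78593_at, and for Ldhb, at 0.23.

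Enzymes of the citrate cycle and of pyruvate entry had 11 of 18 higher and 7 lower, with a median of 0.05 and 0 past the threshold or at an unadjusted p under 0.05 in limma. Pdhx, a component of pyruvate dehydrogenase, had the smallest p among those higher, at 41.4 ± 14.7 against 22.4 ± 17.0 (1.08 ± 0.75), followed by Mpc1, a subunit of the mitochondrial pyruvate carrier (0.33 ± 0.33), and Suclg1, of succinyl-CoA ligase (0.17 ± 0.23). Lower were Aco1 (-0.42 ± 0.43), the cytosolic aconitase, Pdk1 (-0.37 ± 0.50), a kinase of pyruvate dehydrogenase, and Pc (-0.19 ± 0.29), pyruvate carboxylase, whose other probe set differed by 0.08. Without both pools numbered 1 the median of this list was 0.00.

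Other carriers of the inner membrane were split 5 higher to 4 lower, with a median of 0.00 and none past the threshold. Ucp2, an uncoupling protein abundant in immune cells, was the 1 member of the lists of mitochondrial genes with an unadjusted p under 0.05. It read 913 ± 127 in SHA and 1469 ± 408 in SLA, a difference of -0.66 ± 0.26 (limma, adjusted p = 1.0), with no overlap of pools. Its other probe set differed by -0.15. Slc25a10, the dicarboxylate carrier, also separated by line, at 407 ± 21.0 against 490 ± 18.6 (-0.27 ± 0.22), but its other probe sets differed by 0.27 and -0.05. Over all genes tested 5.9% separated, and nothing is read from the 2 in this small list. Ucp3 differed by -0.63 ± 0.77, and Slc25a1, the citrate carrier, by 0.20 ± 0.34. Without both pools numbered 1 the median of the carriers was -0.16.

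Proteins of the outer membrane and partners of the channel had 19 of 27 higher and 8 lower, with a median of 0.13, 0 past the threshold and 0 at an unadjusted p under 0.05 in limma. Acsl5, an acyl-CoA synthetase, separated by line at 504 ± 65.8 against 372 ± 14.6 (0.43 ± 0.23), while its second probe set differed by -0.84. It was the 1 gene of the 27 to separate, beside 5.9% of all genes tested. Tomm20, a receptor for protein import in the membrane that holds Vdac1, differed by 0.36 ± 0.29, and Hspa9, a mitochondrial chaperone, by 0.96 ± 0.80, with its other probe sets at -1.0 and 0.33. Tspo, an outer-membrane protein that binds Vdac1 and is used as a marker of microglia, differed by -0.42 ± 0.37, Mfn2, a mitofusin, by -0.32 ± 0.26 (0.17 on its other probe set), and Cpt1b, a carnitine palmitoyltransferase, by -0.33 ± 0.35 (0.01 on its other probe set, too dim to be tested). Without SLA pool 1 the median of this list was -0.05, and without both pools numbered 1 it was 0.02.

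Respiratory chain and ATP synthase genes had 45 of 56 higher and 11 lower in SHA, with a median of 0.12. Over all genes tested, 45.8% were higher. By line, 2 of the 56 separated, beside 5.9% of all genes tested, and nothing is read from that count. None of the 56 passed and none had an unadjusted p under 0.05 in limma. The 3 with the smallest p among those higher were the complex I subunits Ndufa5, Ndufa6 and Ndufb9, at 0.44 ± 0.22, 0.49 ± 0.25 and 0.59 ± 0.33. Those lower were led by Sdhaf2, an assembly factor of complex II, Cox4i2 and Cox8b, at -0.31 ± 0.31, -0.32 ± 0.40 and -0.40 ± 0.56. Medians within the pool numbers were 0.19, 0.18 and -0.04. Without both pools numbered 1 the median was 0.08. A second Cox8b probe set, too dim to be tested, differed by 0.38.

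**Figure D4:**
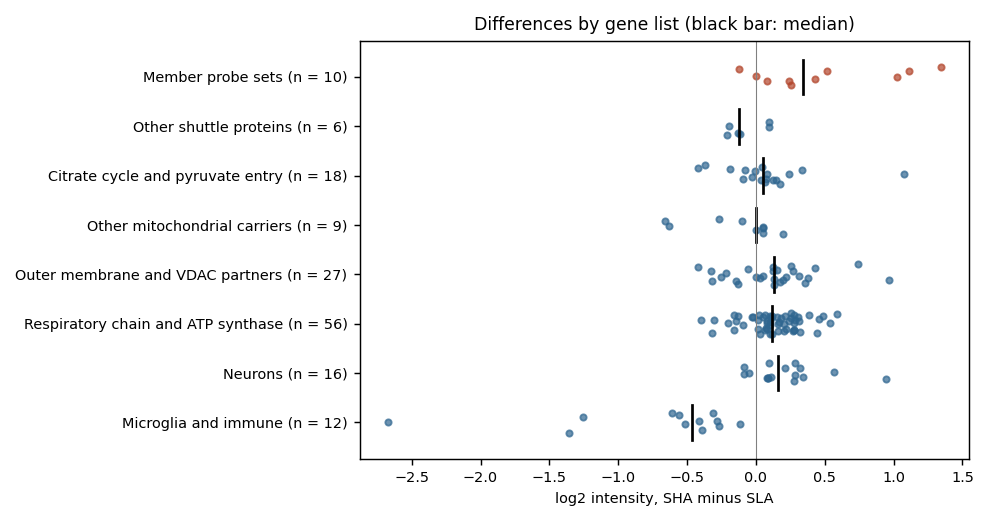
Line difference (horizontal axis, log2 SHA minus SLA) of the 10 tested member probe sets, of the genes of 5 mitochondrial lists and of neuronal and microglial markers, 1 point per gene (per probe set for the members) and a black bar at the median. The mitochondrial lists have medians between -0.12 and 0.13, and every tested microglial and immune marker lies below 0.

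Markers of cell types were set beside the members, since in bulk tissue fewer cells of a type and less RNA per cell cannot be told apart. Neuronal markers had 13 of 16 higher in SHA, with a median of 0.16, and their summed intensity ranged from 27510 to 32170 in SHA and from 24230 to 30520 in SLA. The neuronal sum was lowest in SLA pool 1, where 7 of the 11 members were also lowest. Sums of the other shuttle proteins (5000), the citrate cycle list (8491) and the outer-membrane list (16580) were lowest there too. The oligodendrocyte sum was instead highest in SLA pool 1, at 27350. The respiratory chain sum there was 101000, above the 70950 and 77860 of SLA pools 2 and 3. Of 14 microglial and immune markers on the array, all 12 tested were lower in SHA by their brightest probe set (median -0.47). Their sums were 3067 to 3832 against 5001 to 5326 and did not overlap. Ctss, the brightest of them, weighs most in these sums, at 1911 ± 494 against 2800 ± 647, and its own pools overlapped. Sums without Ctss were not computed. The largest differences were those of Cd74, RT1-Da and RT1-Ba, genes of MHC class II antigen presentation, at -2.67, -1.36 and -1.26. Itgam and Csf1r, too dim to be tested, differed by 0.09 and 1.09. Other probe sets of the tested genes took both signs. Astrocyte markers had 6 of 9 higher (median 0.03, sums 26950 to 29140 against 23810 to 29700) and oligodendrocyte markers 6 of 9 lower (median -0.11, sums 15880 to 22490 against 15720 to 27350). The tested markers of these 4 lists had passed the brightness filter, so none could be under the low-intensity limit in all pools. The part of cell makeup in the Vdac1 and Got2 differences was not tested.

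The remaining marker lists were small. Endothelial markers had 5 of 7 lower (median -0.16), choroid plexus markers 3 of 4 lower (median -0.08) and markers of meninges and fibroblasts 8 of 10 lower (median -0.25). For skeletal muscle, a tissue rich in these mitochondrial genes, 3 of 7 were higher and 4 lower (median -0.15). The muscle sum did not overlap, at 1242 to 1520 against 1009 to 1153, with Myh1, a myosin heavy chain, at 689 ± 41.7 against 360.2 ± 69.7, while Ckm, the muscle creatine kinase, differed by -0.34 ± 0.65. Without Myh1 the sums of the other 6 overlapped, at 584.2 to 783 against 584.3 to 841, a step added after the data were seen.

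The member differences were recomputed under 16 other settings, of which the block alone leaves each difference unchanged by construction. Those of Vdac1 stayed between 0.76 and 1.27 on AF048828_at and between 0.85 and 1.33 on AF048828_g_at. Slc25a5, Mdh1, Mdh2 on rc_AI010480_at and the rc_AA892012 probe sets of Got2 also stayed above 0, the lowest values being 0.09, 0.25, 0.04, 0.05 and 0.71 (the last for rc_AA892012_g_at). Slc25a4, Got1, M18467_at of Got2 and rc_AI010480_g_at of Mdh2 took both signs, with ranges of -0.14 to 0.26, -0.19 to 0.15, -0.02 to 0.47 and -0.64 to 0.38.

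**Figure D5:**
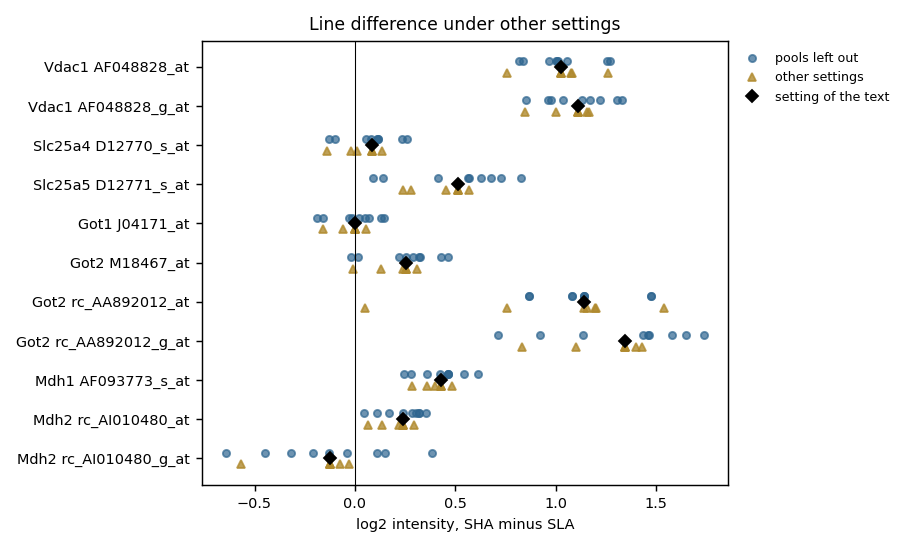
Line difference (horizontal axis, log2 SHA minus SLA) of the 11 probe sets in the setting of the text (diamonds), with pools left out (circles) and under other normalizations, limits, weights or the pool number as a block (triangles). Both Vdac1 rows stay right of 0.7, while Slc25a4, Got1, Got2 on M18467_at and Mdh2 on rc_AI010480_g_at cross 0.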

How the data were processed

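Total RNA of 6 hippocampal pools was measured on 6 one-colour arrays. Intensities are linear and were scaled per array by the authors before they were deposited, as equal trimmed means show. The software is not given in the sources used here. Such scaling hides any shift common to all transcripts. Of 8799 probe sets, 59 controls were set aside. Genes were named through the platform annotation, with 7006 probe sets naming 1 gene, 308 several and 1426 none listed; 6985 matched a GRCr8 gene table by gene number.

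Values under 8.9, the 10th percentile, were raised to it and log2 was taken. The dimmest 25% of probe sets was left out, leaving 6555. The comparison used limma 3.58.1 under R 4.3.3 (two-sided, intensity trend, Benjamini-Hochberg over all 6555, threshold 0.05), a pipeline first tested on simulated data. The simulated differences were larger than any member difference here, and the simulated pools varied independently. That run therefore checked the code and not the power to find differences of the size seen here. The number of arrays limits the precision. Lists took each gene's brightest probe set (3812 genes); up to 3 genes per direction and list are named, by smallest p, and for likeness the 5 genes of highest r. For the named genes of the mitochondrial lists, other probe sets are given where their sign differs. Myh1, Ckm, Ctss, RT1-Da and the marker sums were picked out after their values were seen. Members and lists were chosen with earlier results of these data known.

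Deviations from line means of pools sharing a number correlated at r = 0.44, 0.68 and 0.13 for numbers 1, 2 and 3. The value for number 3 was low, and no r between unlike numbers is given for comparison. A pairing was assumed on the data alone and entered only as an alternative. Standard errors are unblocked unless the block is named. Arrays correlated at r between 0.779 and 0.963, so no array duplicated another. Alternatives were other normalizations, limits, filters, weights, the block, and pools left out.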

Additional observations from a re-analysis of the deposited data

How the results depend on the processing

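In limma 0 probe sets passed in 18 of 19 other settings; with the replicate block and array weights together 12 did, with 0 of the members among them. With the replicate block alone the count past the threshold was 0 and 345 had an unadjusted p under 0.05, against 98 unblocked. Of the 11 members, 10 were higher in SHA in the setting of the text. The block alone leaves every difference unchanged by construction, since each number is carried by a pool of both lines. The count was 9 after quantile normalization or with array weights, 7 with block and weights together, and 8 to 11 with 1 pool left out. The count separated by line was 3 to 5 under other normalizations and limits, 4 to 6 with 1 pool left out, and 8 without both pools numbered 2. Wherever pools are left out separation is easier, and no share over all probe sets is given for these settings. The median r within lines, tried only after the data were seen, was 0.69 after quantile normalization, 0.74 after median centring and 0.20 to 0.88 with 1 pool left out, lowest without SLA pool 1. Of 176 member differences under the other settings, 151 were above 0. These settings reuse the same pools, and the block repeats the main differences, so the 176 values are not independent. By more than the spread between pools, 2 of them moved, both for Got2. They were 0.05 on rc_AA892012_at with the higher limit, and 0.71 on rc_AA892012_g_at without the pools numbered 1. Medians of the lists that moved by more than their spread over pool numbers were 0.19 for other shuttle proteins without SLA pool 2, -0.12 for the citrate cycle with array weights, -0.05 for the outer membrane without SLA pool 1, 0.28 for the respiratory chain without SHA pool 3, and -0.27 to -0.12 for the other carriers when pools were left out. Apart from the higher limit, which sets the first Got2 value by its construction, the cause was not tested.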
